A study of Mus musculus with 24 samples.

Results

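Bcam, the gene Dag1 and 5 laminin chain genes (Lama3, Lama5, Lamb2, Lamb3 and Lamc1) were followed through all 24 RNA libraries of a study of sorted mouse tracheal epithelium. These 7 genes of 35855 were chosen by name, as a laminin receptor pair and the chains that make laminins of the epithelial basement membrane, and all 7 were among the 12211 genes that passed the filter on low counts. Each library came from 1000 cells sorted from the trachea of naive wild-type female C57BL/6 mice, and no treatment was given in any group. The labels divide the cells into 3 subsets of 8 libraries each, BCAM HI (called BCAM high here), BCAM LO (BCAM low) and DIFFERENTIATED EPCS (differentiated). Replicates 1 to 5 of each group carry batch label 1 and replicates 6 to 8 carry batch label 2, and the labels do not say what a batch is. Nor do they say whether libraries came from separate animals, so p-values measure the spread between these libraries, which may be partly technical. The labels name no gate beyond the BCAM level and no marker by which the differentiated cells were sorted.

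Laminins are cross-shaped proteins of the basement membrane, each built from an alpha, a beta and a gamma chain. Laminin-332, which holds the chains from Lama3 and Lamb3, anchors basal epithelial cells to the basement membrane through the integrin of Itga6 and Itgb4. The Lama5 chain is found in laminins with Lamb1 or Lamb2 and Lamc1, and it is the chain that BCAM, an immunoglobulin-family surface protein also known as the Lutheran antigen, binds. Dag1 encodes dystroglycan, a receptor that holds laminin by sugar chains on its outer subunit and links it to the cytoskeleton within the cell. In the airway, basal cells are the layer that touches the basement membrane and from which secretory and ciliated cells arise.

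The 2 Bcam transcripts on which the results below turn are shown first, at the place where they part. Bcam-201 is the full-length coding transcript with 15 exons, and Bcam-202 is annotated as a retained-intron transcript with 8 exons that runs on into the intron after the shared exon 8. The lower-case letters are the last 30 bases of that shared exon. The capitals are the next exon in Bcam-201 and the first 120 bases of intron in Bcam-202, read 5′ to 3′ from GENCODE M21 transcripts (build GRCm38, minus strand). The Bcam-201 stretch spans chr7:19760383-19764069 across the removed intron, and the Bcam-202 stretch lies at chr7:19763920-19764069.
Bcam-201: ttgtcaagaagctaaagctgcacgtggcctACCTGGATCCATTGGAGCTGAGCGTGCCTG
Bcam-202: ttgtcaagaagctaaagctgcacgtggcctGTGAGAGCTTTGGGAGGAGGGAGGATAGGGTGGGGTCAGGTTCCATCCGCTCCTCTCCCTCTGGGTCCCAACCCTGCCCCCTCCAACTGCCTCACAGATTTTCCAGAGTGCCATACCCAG
The intron part of Bcam-202 begins with GT, the usual start of an intron, and covers 367 of the 3627 bases of that intron. Neither AATAAA nor ATTAAA, the common polyadenylation signals, occurs in the last 60 bases of Bcam-202. No gene other than Bcam overlaps this stretch in M21.

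Library totals, in estimated counts, were 2318444 to 3686896 for BCAM high, 1824619 to 4440072 for BCAM low and 2249001 to 2575975 for differentiated. The basal markers were present in both BCAM groups: the 9 of the list had summed levels (CPM, counts scaled to library totals with TMM factors) of 5867 to 8365 for BCAM high and 5413 to 6070 for BCAM low, against 261.1 to 2595 in differentiated, where Krt5 stayed at 0 to 2.777 CPM. The differentiated libraries held secretory transcripts (8 listed) at 290123 to 424080 CPM in batch 1 and 13441 to 89664 in batch 2, while BCAM high held 25867 to 34814 and BCAM low 34458 to 75180. Between the BCAM groups 4 of 8 secretory markers were lower and 4 of 9 basal markers higher in BCAM high (edgeR adjusted p under 0.05). Of all genes tested 4.59% were lower and 2.43% higher. The part of these markers in the comparisons of the BCAM groups was not tested. The differentiated libraries held ciliated transcripts (8 listed) at 111.9 to 609.4. The same libraries also held transcripts of the thyroid, which lies against the trachea: 7 listed genes, of which 6 passed the filter, summed to 13796 to 25931 CPM in batch 1 and 49438 to 116838 in batch 2, with at most 1284 in any BCAM high library and 242.2 in any BCAM low library. Parathyroid transcripts (4 listed) reached 29215 CPM in the library differentiated 2. Ciliated transcripts in BCAM low stood at 5.675 to 21.71 CPM in batch 1 and 180.6 to 296.8 in batch 2. Fibroblast transcripts (6 listed) summed to at most 672.1 CPM in any library, endothelial ones (7 listed) to 65.42, smooth muscle and pericyte ones (7 listed) to 54.83, immune ones (5 listed) to 50.22, Schwann cell ones (4 listed) to 32.85 and chondrocyte ones (4 listed) to 14.15. The differentiated libraries of batch 2 therefore stand apart in their marker content, and differences of the 7 genes from that group are given pooled and for each batch alone, with list counts by batch.

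Bcam RNA was present in every library, at 189 to 2357 counts. In BCAM high, Bcam measured 324.5 CPM at the lowest, 502.3 at the median and 739.3 at the highest. In BCAM low the same figures were 223.6, 410.2 and 456.7 CPM. The cells were sorted on the BCAM protein, yet the Bcam RNA ranges overlapped, with 6 of the 8 BCAM high libraries above every BCAM low library. The fitted difference was 0.39 (log2, SE 0.28), or 1.31-fold, and it did not pass the threshold (edgeR's quasi-likelihood F-test, Benjamini-Hochberg adjusted p = 0.462). Batch 1 alone gave 0.32 (SE 0.27, edgeR adjusted p = 0.551). Batch 2 alone gave 0.59 (SE 0.23, edgeR adjusted p = 0.205), and there the ranges did not overlap. The fit of all libraries takes in the spread of the differentiated group, but with only the BCAM groups in the fit Bcam was not called either. In bulk libraries of this kind, fewer cells with a transcript and less of it per cell cannot be told apart.

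In the differentiated libraries Bcam spanned 108.9 to 907.4 CPM with a median of 251.6. The 5 libraries of batch 1 measured 108.9, 134.9, 163.0, 251.6 and 251.6 CPM, and the 3 of batch 2 measured 886.8, 907.4 and 457.6 CPM. Every batch 1 library lay below the lowest of batch 2, so the group holds 2 separate levels. In batch 1 alone every differentiated library lay below every BCAM high library and Bcam was higher in BCAM high by 1.26 (log2, SE 0.28, adjusted p = 0.0027 in an edgeR fit of that batch). In batch 2 alone the same difference was -0.26 (log2, SE 0.23, edgeR adjusted p = 0.449). The pooled difference, 0.61 (log2, SE 0.29), was not called (edgeR adjusted p = 0.0952).

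The Bcam difference between BCAM low and differentiated turned its direction with batch. It was 0.94 (log2, SE 0.27) in batch 1 and -0.85 (log2, SE 0.23) in batch 2, and both passed the threshold in a fit of their own batch (edgeR adjusted p = 0.0174 and 0.0202). Pooled, it was 0.21 (log2, SE 0.29, edgeR adjusted p = 0.607). The change of the difference from batch 1 to batch 2 was itself called, at -1.79 for BCAM low and -1.51 for BCAM high against differentiated (edgeR interaction test, adjusted p = 0.00651 and 0.0244). The second of these lost its call when BCAM high 7, BCAM high 8, differentiated 6 or differentiated 7 was left out (adjusted p = 0.0551, 0.074, 0.0749 and 0.0843). Within the differentiated group, thyroid transcripts and Bcam were both higher in every library of batch 2 than in any of batch 1, and the part of the thyroid transcripts in the Bcam level was not tested.

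**Figure D1:**
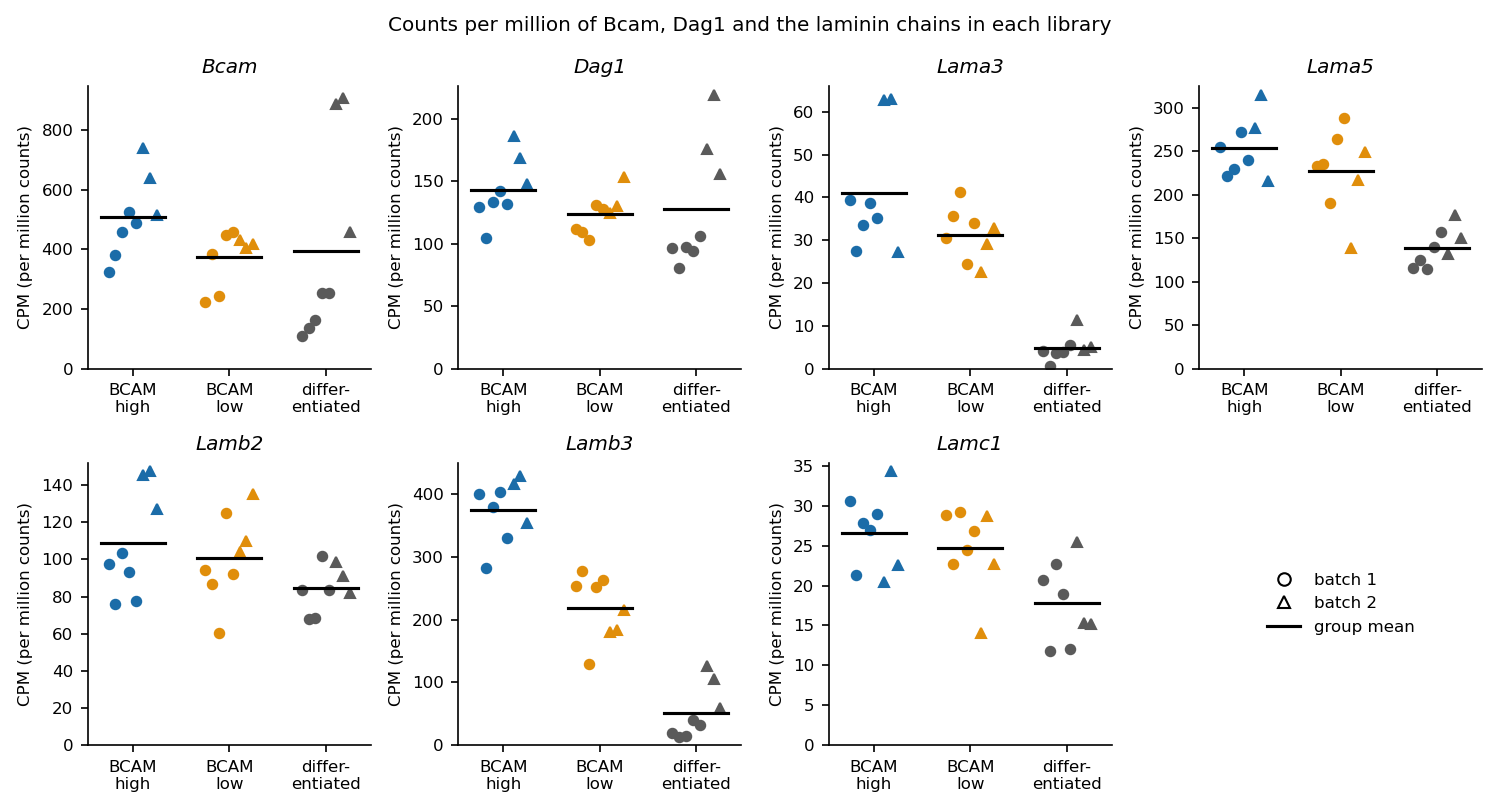
CPM (y axis, from 0) of each gene in each library, by group (x axis), with circles for batch 1, triangles for batch 2 and a bar at the mean of 8 libraries. The differentiated group splits by batch for Bcam, Dag1 and Lamb3, while Lama3 is at 0.62 to 11.3 CPM there against 22.5 to 62.96 in the BCAM groups.

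The clearest separation of BCAM high from BCAM low lay inside the Bcam gene. Of the 5 Bcam transcripts in the files, the retained-intron transcript Bcam-202 held 17.06, 14.72, 4.37, 7.81, 10.57, 3.12, 11.51 and 15.49% of Bcam TPM (a level per transcript length, scaled to a fixed total) in BCAM high libraries 1 to 8. In BCAM low it held 0.98% in library 2 and 0 in the other 7. In differentiated it held 0, 10.72, 3.03, 11.01, 0, 1.82, 8.05 and 13.11% in libraries 1 to 8. Every BCAM high library was above every BCAM low library, and the differentiated libraries covered both ranges.

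These shares rested on 43.19 to 165.75 estimated counts of Bcam-202 in BCAM high and on 8.87 counts in the 1 BCAM low library that had any. The 7 BCAM low libraries at 0 had 827 to 2061 Bcam counts, so that a floor of 3 counts allows a share of up to 0.146 to 0.363% of Bcam counts in them. The shares of Bcam counts in BCAM high, 1.83 to 11.02%, lay above these floors. The floors rest on all Bcam counts, not on the intron part alone, and the part of depth in the zeros was not tested. Such floors cover counting error only: no molecular identifiers were counted, so several reads can stem from 1 molecule. Estimated counts also divide reads between transcripts that share exons, and only the intron part is particular to Bcam-202.

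The mean Bcam-202 share was 10.58 ± 5.16% (SD, n = 8) in BCAM high, 0.12 ± 0.35% in BCAM low, against 5.97 ± 5.35% in differentiated. BCAM high exceeded BCAM low by 10.46 percentage points. An exact permutation test within batches (two-sided) gave p = 0.0003968 for this, the smallest the design allows. Adjusted over 6 tests of 2 transcripts and 3 comparisons, that p was 0.00119. The 2 transcripts were those with a mean share of at least 5% over all 24 libraries, BCAM high included. Bcam-202 reached that mean only with BCAM high counted. Its choice for testing was therefore not independent of its level there, which limits what these p-values can support. BCAM low was below differentiated by 5.85 points (exact permutation test, adjusted p = 0.0167). BCAM high against differentiated, at 4.61 points, did not pass (exact permutation test, adjusted p = 0.135). Within batches the difference of BCAM high from BCAM low was 10.71 points in batch 1 (exact permutation test, adjusted p = 0.0238) and 10.04 points in batch 2, where 3 libraries against 3 cannot go below p = 0.1.

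The full-length coding transcript Bcam-201 moved the other way, in a share tied by the common total to Bcam-202 and the remaining Bcam transcripts alike. It held 61.69 to 96.88% of Bcam TPM in BCAM high, 84.68 to 100% in BCAM low, against 50.7 to 98.18% in differentiated. Its share in BCAM high differed from that in BCAM low by -17.81 points (exact permutation test, adjusted p = 0.00119), and higher in BCAM low than in differentiated by 13.12 points (exact permutation test, adjusted p = 0.0464). Without any 1 of 11 libraries (7 of BCAM low, 4 of differentiated) that call no longer held, at exact permutation p-values of 0.0554 to 0.1 after adjustment. Bcam-205, a short coding transcript with 6 exons, was above 0 in 7 BCAM high libraries (0.18 to 13.38%), in 1 BCAM low library (15.32%) and in 3 differentiated libraries (6.24 to 14.14%). The coding transcripts, Bcam-201 and Bcam-205 together, measured 237.5 TPM at the median in BCAM high, 169.8 in BCAM low, against 69.14 in differentiated.

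Few transcripts showed such a separation. Compared here were 4400 transcripts with a mean share of their gene of at least 5% over all 24 libraries, in genes with at least 100 counts. Of these, 4 (0.0909%) had shares that did not overlap between BCAM high and BCAM low. Beside Bcam-202 these were a coding Nfia transcript (7.54 to 32.3% against 0 to 6.84%), a coding Gsn transcript (62.6 to 67.0% against 67.9 to 85.2%) and a coding Slc6a6 transcript (4.02 to 20.7% against 0 to 2.52%), named after their values were seen. Among 764 retained-intron transcripts, Bcam-202 was the 1 that was higher in BCAM high without overlap (0.131%). Bcam-202 passed the 5% filter only through its BCAM high libraries. Both percentages are therefore a description and no support for its difference. Retained-intron transcripts of all genes together held 5.82 to 7.29% of counts in BCAM high, 4.38 to 6.66% in BCAM low, against 3.29 to 4.72% in differentiated. The BCAM high and BCAM low ranges of that total overlapped over both batches and in batch 1, but not in batch 2 (5.82 to 7.29% against 4.38 to 5.69%). The part of that total in the Bcam-202 share was not tested.

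**Figure D2:**
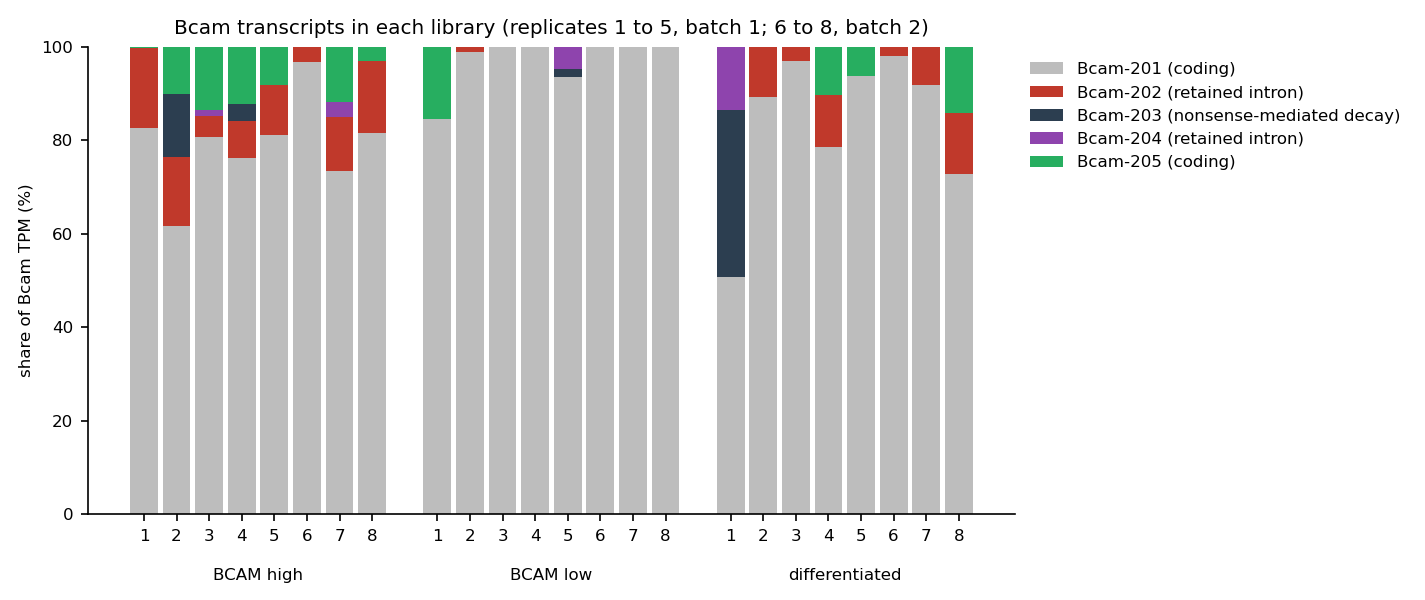
Share of Bcam TPM (y axis, percent) held by each of the 5 Bcam transcripts in each library (x axis, replicate number within group). The red segment, Bcam-202, is present in all 8 BCAM high libraries at 3.12 to 17.06% and reaches 0.98% in 1 of 8 BCAM low libraries.

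Across the 7 genes, none was called between BCAM high and BCAM low in the fit of all 24 libraries by edgeR's quasi-likelihood test, while 7.02% of the 12211 genes tested were called, 2.43% higher in BCAM high and 4.59% lower. At an unadjusted p under 0.05, 1 of the 7 passed, Lamb3. DESeq2 and limma on log2(TPM + 0.1) also called 0 of the 7, and limma on log2(TPM + 1) called 1, again Lamb3. The median difference of the 7 genes was 0.19 (log2), against 8.8e-05 over all genes tested.

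Lamb3, the beta chain of laminin-332, was the one of the 7 whose CPM did not overlap between the BCAM groups, as happened for 1.5% of all genes tested. It measured 282.7, 389.8 and 429.4 CPM (lowest, median, highest) in BCAM high, while BCAM low had 129.2, 233.6 and 276.7. All 8 BCAM high libraries were above all 8 BCAM low libraries. The fitted difference of 0.73 (log2, SE 0.31), or 1.66-fold, was not called with all groups in the fit (edgeR adjusted p = 0.174). With only the BCAM groups in the fit, so that the spread of the differentiated libraries did not enter, the difference was 0.76 and was called (edgeR adjusted p = 0.000114). Batch 1 alone gave 0.62 (SE 0.25, edgeR adjusted p = 0.186) and batch 2 alone 1.05 (SE 0.22, edgeR adjusted p = 0.0143).

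The other members differed less between the BCAM groups, and all their ranges overlapped. The difference of BCAM high from BCAM low was 0.34 (log2, SE 0.22) for Lama3, 0.19 (SE 0.12) for Dag1, 0.15 (SE 0.12) for Lama5, 0.11 (SE 0.17) for Lamc1 and 0.09 (SE 0.13) for Lamb2. Their adjusted p-values in the edgeR fit ran from 0.369 for Dag1 to 0.794 for Lamc1. No member's difference between the BCAM groups was called as changing between batches, by edgeR's interaction test. That was 0 of 7 at adjusted p under 0.05 and 0 of 7 at unadjusted p, with 1.06% of all genes called. The largest change was 0.79 for Lama3 (log2, SE 0.40, edgeR interaction test, unadjusted p = 0.0586). Its difference was 0.07 in batch 1 alone and 0.85 in batch 2 alone, and that of Lama5 was 0.01 and 0.41.

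Against the differentiated cells, 5 of the 7 genes were higher in BCAM high and none was lower (edgeR adjusted p under 0.05), where 41.3% of all genes tested passed, 19.4% higher and 22.0% lower. For BCAM low, 4 of the 7 were higher and none lower, where 33.5% were called, 16.3% higher and 17.1% lower. The median difference of the 7 was 0.61 (log2) for BCAM high and 0.48 for BCAM low, against 0.02 over all genes in either comparison. The 2 comparisons share the differentiated libraries and are not independent of each other.

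The alpha and beta chains of laminin-332 showed the largest differences of the 7. Lama3 measured 27.28, 37.02 and 62.96 CPM (lowest, median, highest) in BCAM high, 22.5, 31.68 and 41.4 in BCAM low, against 0.62, 4.15 and 11.3 in differentiated. Both BCAM groups lay wholly above the differentiated group. Lama3 was higher by 3.09 (log2, SE 0.27, 8.52-fold, edgeR adjusted p = 1.63e-10) in BCAM high and by 2.75 (6.74-fold) in BCAM low. It remained called within each batch, at 3.27 and 2.93 for BCAM high and at 3.20 and 2.08 for BCAM low in batches 1 and 2.

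The gene has a long coding transcript with 75 exons and a short one with 38 exons that lies toward the 3′ end. These correspond to the long and short forms of the alpha 3 chain, of which the short form is the one classically found in laminin-332. The short form had a median of 88.0 estimated counts in BCAM high, 60.8 in BCAM low, against 0.385 in differentiated. The long form had a median of 45.1, 46.2 and 6.23 counts in the same order. The short form thus held a median of 80.9% of Lama3 TPM in BCAM high, 72.6% in BCAM low, against 9.65% in differentiated, the last from 1 to 20 Lama3 counts per library, so that its range was 0 to 73.7%. These shares were not tested, and the reads of the short form's exons are shared with the long form.

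Lamb3 measured 12.99, 36.1 and 125.4 CPM (lowest, median, highest) in differentiated, below every library of either BCAM group. It was higher by 3.03 (log2, SE 0.35, 8.19-fold, edgeR adjusted p = 3.15e-07) in BCAM high and by 2.30 (4.93-fold) in BCAM low. Within the differentiated group, batch 1 measured 12.99 to 40.55 CPM and batch 2 measured 58.84 to 125.4 CPM, with no overlap. The difference of BCAM high was 3.90 in batch 1 and 2.05 in batch 2, and that of BCAM low 3.29 and 1.00, all 4 called in their own batch. The change between batches was -1.84 for BCAM high and -2.28 for BCAM low (edgeR interaction test, adjusted p = 0.00619 and 0.000886).

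Lama5, the chain bound by BCAM, was higher in both BCAM groups by a smaller step. It measured 215.8, 247.1 and 314.8 CPM (lowest, median, highest) in BCAM high, 138.5, 234.0 and 288.1 in BCAM low, against 114.0, 135.5 and 176.2 in differentiated. Every BCAM high library and 7 of the 8 BCAM low libraries were above all differentiated libraries. The difference was 0.87 (log2, SE 0.12, 1.83-fold, edgeR adjusted p = 1.49e-06) for BCAM high and 0.72 (1.64-fold) for BCAM low. It was 0.91 and 0.81 in batches 1 and 2 for BCAM high, both called, and 0.89 and 0.40 for BCAM low, of which the batch 2 value was not called (edgeR adjusted p = 0.24).

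Lamc1, the gamma chain that pairs with Lama5, showed a small difference at low counts. It measured 20.39, 27.47 and 34.31 CPM (lowest, median, highest) for BCAM high, 14.11, 25.64 and 29.28 for BCAM low, against 11.76, 17.12 and 25.42 in differentiated, and the ranges overlapped. The difference was 0.58 (log2, SE 0.18, edgeR adjusted p = 0.0102) for BCAM high and 0.48 (edgeR adjusted p = 0.0429) for BCAM low. The BCAM high call was lost in batch 2 alone and with transcript length offsets, and the BCAM low call under 18 of 35 alternatives, 13 of which left out a single library. Batches 1 and 2 alone gave 0.66 and 0.47 for BCAM high and 0.61 and 0.24 for BCAM low.

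Lamb2, the beta chain of laminin-521, measured 75.93, 100.7 and 147.9 CPM (lowest, median, highest) for BCAM high, 60.62, 99.17 and 135.2 for BCAM low, against 68.06, 83.51 and 101.7 in differentiated. Its difference was 0.33 (log2, SE 0.13, edgeR adjusted p = 0.0393) for BCAM high and 0.25 (edgeR adjusted p = 0.144) for BCAM low. The BCAM high call was lost under 15 of 35 alternatives, among them batch 1 alone (0.15, edgeR adjusted p = 0.529), while batch 2 alone gave 0.63 (edgeR adjusted p = 0.00901). Under the other alternatives that lost the call the difference stayed at 0.28 to 0.36 (adjusted p of 0.0505 to 0.297). For BCAM low the batches alone gave 0.18 and 0.36, neither called.

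Dag1 followed the batch pattern of Bcam. It measured 104.8, 137.5 and 186.6 CPM (lowest, median, highest) for BCAM high, with BCAM low at 103.2, 126.3 and 153.3. In differentiated it was 80.44 to 106.4 CPM in batch 1 and 155.5 to 219.3 in batch 2, again 2 levels without overlap. The pooled difference from differentiated was 0.20 (log2, SE 0.12) for BCAM high and 0.01 for BCAM low, neither called (edgeR adjusted p = 0.169 for BCAM high). Batch 1 alone gave 0.44 for BCAM high, which was called (edgeR adjusted p = 0.006), and batch 2 alone gave -0.14. For BCAM low the sign turned, with 0.29 in batch 1 and -0.43 in batch 2, neither called (edgeR adjusted p = 0.0635 and 0.107). The change between batches was called for BCAM low (-0.73, edgeR interaction test, adjusted p = 0.0134) but not for BCAM high (-0.56, adjusted p = 0.0707). The former call was lost without differentiated 7 (adjusted p = 0.088) and with transcript length offsets (-0.61, adjusted p = 0.177), and the latter difference was called without BCAM high 2 (adjusted p = 0.0362) or differentiated 8 (adjusted p = 0.0259).

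Differences that depended on batch were thus found for 2 of the 7 genes in BCAM high against differentiated (Bcam and Lamb3), where 8.69% of all genes were called, and for 3 of the 7 in BCAM low against differentiated (Bcam, Lamb3 and Dag1), where 11.4% were called. The batch term over all groups was called for 3 of the 7, all higher in batch 2: Bcam by 0.98 (log2, SE 0.24), Dag1 by 0.52 (SE 0.10) and Lamb2 by 0.39 (SE 0.11). Of all genes tested 21.4% were called for that term, 11.8% higher in batch 2 (edgeR adjusted p under 0.05). Batch 2 differentiated libraries also had more thyroid and fewer secretory transcripts than those of batch 1, and the part of either in these differences was not tested.

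**Figure D3:**
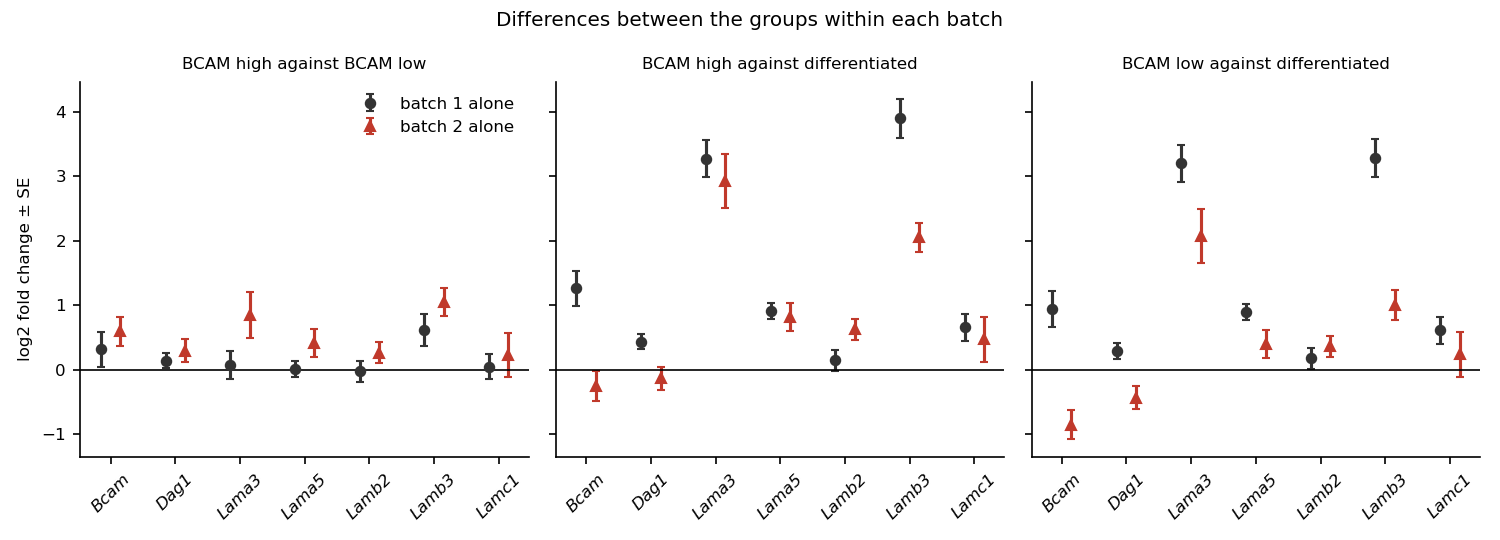
Log2 fold change (y axis) with its standard error for each gene (x axis) in edgeR fits of batch 1 alone (circles) and batch 2 alone (triangles), 1 panel per comparison. Against differentiated cells, Bcam moves from 1.26 to -0.26 in BCAM high and from 0.94 to -0.85 in BCAM low, while Lama3 stays between 2.08 and 3.27 in both.

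**Figure D4:**
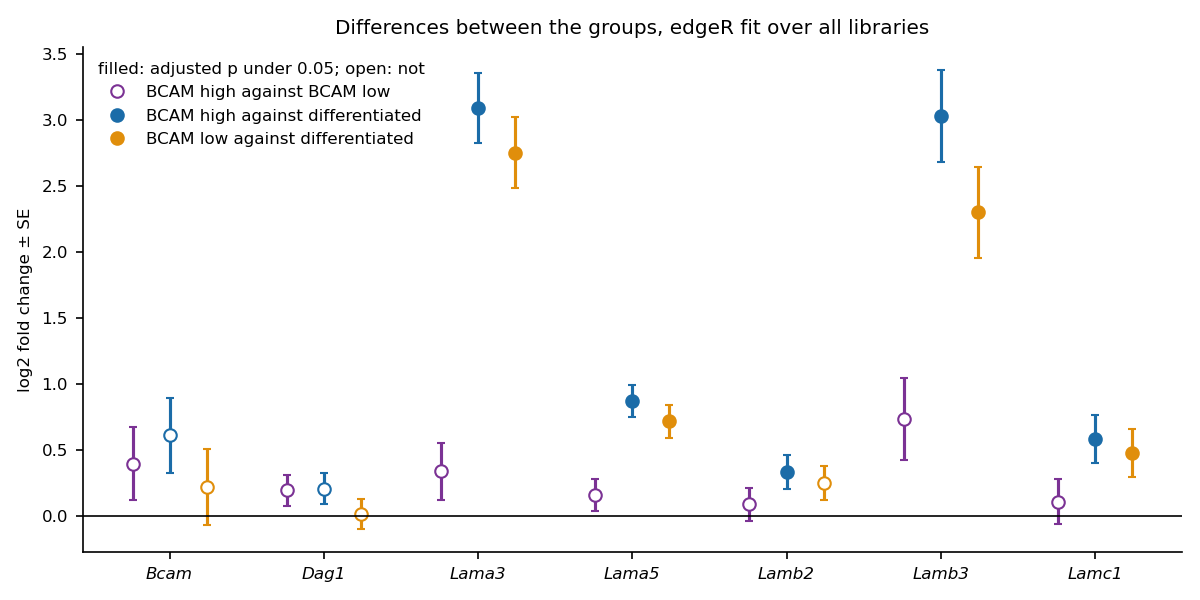
Log2 fold change (y axis) with its standard error for each gene (x axis) in the edgeR fit of all 24 libraries with batch as a covariate. Filled points passed an adjusted p of 0.05; Lama3 and Lamb3 lie between 2.30 and 3.09 against differentiated cells, and no point is filled for BCAM high against BCAM low.

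Levels were set side by side between genes as TPM of coding transcripts, a level per transcript length. In BCAM high the order of medians was Bcam (237.5), Lamb3 (107.4), Dag1 (29.02), Lama5 (19.95), Lamb2 (17.45), Lamc1 (8.202) and Lama3 (5.566 TPM). The ranges of Bcam (142.3 to 382.8), Lamb3 (68.05 to 136.8) and Dag1 (17.79 to 44.69 TPM) were apart from each other, as were Lamb2 (12.36 to 33.74) and Lamc1 (3.329 to 10.41 TPM), while the other neighbours overlapped. BCAM low kept that order, with medians of 169.8, 61.49, 21.69, 15.78, 15.85, 6.271 and 4.572 TPM for the same genes, except that Lama5 and Lamb2 were level. In differentiated the order was Bcam (69.14), Dag1 (12.48), Lamb2 (10.24), Lama5 (6.052), Lamb3 (5.454), Lamc1 (2.202) and Lama3 (0.3205 TPM), in which Lama3, at 0.031 to 0.687 TPM, lay wholly below Lamc1, at 1.527 to 4.589. The place of Lamb3 in differentiated differed by batch: its median was 3.751 TPM in batch 1, below Lamb2 (8.43) and Lama5 (5.418), and 19.91 TPM in batch 2, above Lamb2 (11.51) and Lama5 (9.42).

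Ratios within a library take out its scaling. The log2 ratio of Lamb3 to Lamb2 (coding TPM plus 0.1) was 2.40 ± 0.28 (SD, n = 8) in BCAM high, 1.68 ± 0.42 in BCAM low, against -0.66 ± 1.09 in differentiated, and no differentiated library, at most 0.85, reached the lowest of a BCAM group, 1.25. The log2 ratio of Lama3 to Lama5 was -1.63 ± 0.35, -1.75 ± 0.39 and -4.01 ± 0.59 in the same order. Both pairs therefore showed the chain of laminin-332 higher relative to the other chain in the BCAM groups.

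The transcript make-up limits the summed TPM of some genes. Only a median of 15.77% of Lama5 TPM in BCAM high came from its coding transcript, since 3 short noncoding transcripts (451, 478 and 734 bases) near the 3′ end held the rest. In counts, that coding transcript held a median of 83.3%. Of Lamb2 TPM a median of 51.91% was coding in BCAM high, the rest lying in retained-intron transcripts, and a median of 56.2% of Lamc1 TPM came from a coding transcript of 3 exons at the 3′ end.

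**Figure D5:**
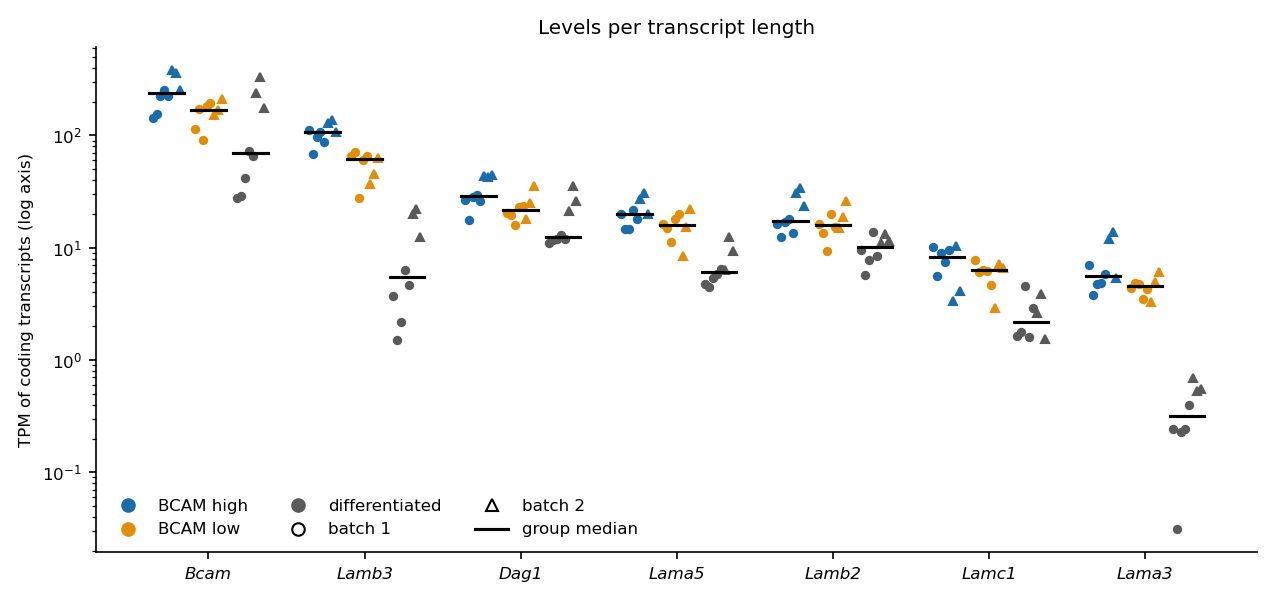
TPM of the coding transcripts of each gene (y axis, log scale) in each library, with circles for batch 1, triangles for batch 2 and a bar at the group median. Bcam has the highest median in all 3 groups (237.5, 169.8 and 69.14 TPM) and Lama3 the lowest (5.566, 4.572 and 0.3205 TPM).

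Deposited TPM moved the differences of all genes, so the values from a fit on TPM were read relative to that shift. With limma on log2(TPM + 0.1) the median gene was higher by 0.26 in BCAM high than in BCAM low, by 0.75 in BCAM high than in differentiated and by 0.48 in BCAM low than in differentiated. On that scale Bcam differed by 0.80, 1.51 and 0.71 in the 3 comparisons, or 0.54, 0.76 and 0.22 above the median gene. The latter 2 passed the threshold in that fit (limma adjusted p = 7.79e-05 and 0.0465) but include the shift.

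Other genes of the laminin system were counted from lists. In batch 1 alone, 4273 of all 12673 genes tested were called for BCAM high against differentiated (1990 higher) and 4192 for BCAM low (2072 higher). In batch 2 alone, 3664 of 12385 were called for BCAM high (1597 higher) and 2221 for BCAM low (1100 higher). Among other laminin chains, Lamb1 was lower than in differentiated by -2.75 (log2, SE 0.60) in BCAM high and by -2.64 (SE 0.61) in BCAM low (edgeR adjusted p = 0.000611 and 0.00146), at 1.05 to 7.78 CPM in BCAM high, 0.66 to 9.15 in BCAM low, against 3.69 to 91.5 in differentiated. Another 4 chains did not pass the filter: Lama1, Lama2 and Lama4 totalled 7 to 54 counts in each group of 8 libraries and Lamc3 totalled 3 to 5.

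Of 10 other laminin receptors and their partners, 7 were higher in BCAM high than in differentiated and none was lower, with a median of 0.89 (log2), where 19.4% of all genes were higher and 22.0% lower. In batches 1 and 2 alone 7 of 10 and 5 of 9 tested were higher and none lower. Itgb4, the beta subunit of the hemidesmosome integrin, rose most, by 3.71 (SE 0.13, edgeR adjusted p = 1.05e-18). Itga2, a collagen and laminin receptor subunit, rose by 2.22, the heparan sulfate proteoglycan Sdc1 by 2.09 and Itga3, a subunit of the laminin-332 and laminin-511 receptor, by 1.35. In BCAM low 4 were higher and none lower (16.3% and 17.1% of all genes), among them Itgb4 by 3.19 and Itga6, its alpha partner, by 1.24. By batch 6 of 10 and 2 of 9 were higher in BCAM low, and Itga6 was at 1.90 in batch 1 and 0.14 in batch 2, the latter not called. Between the BCAM groups Itgb4 was higher in BCAM high by 0.52 (SE 0.12, edgeR adjusted p = 0.00499) and Sdc4, another proteoglycan, by 0.34 (SE 0.10, adjusted p = 0.0293), while the other 8 were not called. Itgb1, the shared beta subunit, differed by at most 0.13 (log2) in any of the 3 comparisons and was not called.

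Among 12 tested basement membrane components of 16 listed, 4 were higher and 4 lower in BCAM high than in differentiated, with a median of -0.36 (log2), where 19.4% of all genes were higher and 22.0% lower. Of 13 tested in each batch alone, 4 were higher and 3 lower in batch 1, and 2 higher and 8 lower in batch 2. Col7a1, the collagen of anchoring fibrils, was higher by 6.03 (SE 0.27, edgeR adjusted p = 1.68e-16) and Agrn, a proteoglycan that binds laminin and dystroglycan, by 2.34. The collagen IV chains divided, with Col4a1 and Col4a2 lower by -1.78 and -2.54, Col4a4 lower by -1.74, and Col4a6 and Col4a5 higher by 0.75 and 0.44. In BCAM low 3 were higher and 5 lower (16.3% and 17.1% of all genes), with Col7a1 at 5.56 and Col4a3 at -2.81. By batch 4 were higher and 5 lower, then 2 higher and 8 lower, of 13. Between the BCAM groups Agrn was higher in BCAM high by 0.55 (edgeR adjusted p = 0.00718) and Col18a1, a collagen with heparan sulfate chains, by 1.12 (adjusted p = 0.0496, near the threshold).

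Enzymes that build the laminin-binding sugar on dystroglycan showed no common direction. Of 16 tested, 2 were higher (B3galnt2 by 0.77, Rxylt1 by 0.41) and 2 lower (Gmppb by -1.41, Pomgnt2 by -1.07) in BCAM high than in differentiated, and 1 was higher and 4 lower in BCAM low. For BCAM high both shares lie below those of all genes (19.4% higher, 22.0% lower). For BCAM low the higher share lies below that of all genes (16.3%) and the lower share above it (17.1%). In batches 1 and 2 alone 1 and 0 were higher and 2 and 3 lower in BCAM high, and none was higher and 3 and 2 were lower in BCAM low. None was called between the BCAM groups. Of 10 tested members of the complex that surrounds dystroglycan, the cytoskeletal linker Plec was higher in BCAM high than in differentiated by 1.78 (log2, SE 0.11, edgeR adjusted p = 2.82e-13), Sgce, Dtna and Sntb1 were lower by -1.71, -1.56 and -0.46, and the other 6 were not called. In BCAM low 1 was higher, Plec, and 2 were lower. Of all genes, 19.4% were higher and 22.0% lower in BCAM high, and 16.3% and 17.1% in BCAM low. In both BCAM groups 2 were higher and 2 lower in batch 1 alone, and 1 higher and 3 lower in batch 2 alone.

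Of 3 tested proteases that can process laminin chains, Bmp1 and Mmp14 were higher in both BCAM groups, by 1.83 and 1.07 in BCAM high and by 1.57 and 1.14 in BCAM low (log2, edgeR, 4 adjusted p-values of at most 6.09e-06). Both were called in each batch alone for BCAM high, while for BCAM low Bmp1 was not called in batch 2 (0.85, edgeR adjusted p = 0.15). Over all genes and both batches, 19.4% were higher in BCAM high and 16.3% in BCAM low. Of the adhesion molecules most related to BCAM, Alcam was lower in BCAM high than in BCAM low by -0.42 (SE 0.12, edgeR adjusted p = 0.0237). Mcam was lower in BCAM low than in differentiated by -2.16 (edgeR adjusted p = 0.0233), a difference that was -0.52 and not called in batch 1 alone and -6.38 in batch 2 alone.

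Among 9044 genes with a mean of at least 10 CPM, the gene whose log2 CPM was most like that of Bcam over the 24 libraries was Dag1, with Pearson's r of 0.897. The next 4 were Lrch1 (0.865), Igsf3 (0.859), Fam53b (0.852) and Slc5a3 (0.843). All 5 were higher in batch 2 than in batch 1 of the differentiated group, for example Slc5a3 at a mean of 633.9 against 139.2 CPM and Igsf3 at 60.87 against 16.54. The libraries share group and batch. With the mean of each group and batch removed, r was 0.608 for Dag1, 0.659 for Lrch1, 0.357 for Igsf3, 0.485 for Fam53b and 0.657 for Slc5a3. Of the laminin chains, Lamb3 came nearest (r 0.687, rank 138), followed by Lamb2 (0.552), Lama5 (0.512), Lama3 (0.501) and Lamc1 (0.218). With those means removed, r for Lamb3 was 0.694, above that of Dag1 and of the other 4 genes named, so the order rests on the differences between groups and batches.

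Because Dag1 stood first over all 24 libraries, the 250 bases before their start sites are shown from RefSeq (build GRCm38.p6), 5′ to 3′ on the minus strand, with the GC box letters GGGCGG in capitals. The Bcam window is chr7:19770533-19770782. For Dag1, which has 2 windows in the table, the first listed is chr9:108263959-108264208.
Bcam: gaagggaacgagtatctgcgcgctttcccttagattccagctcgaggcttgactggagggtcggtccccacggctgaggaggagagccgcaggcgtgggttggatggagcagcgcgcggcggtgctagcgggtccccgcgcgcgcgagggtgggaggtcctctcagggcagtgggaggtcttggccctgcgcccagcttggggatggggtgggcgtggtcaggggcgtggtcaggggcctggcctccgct
Dag1: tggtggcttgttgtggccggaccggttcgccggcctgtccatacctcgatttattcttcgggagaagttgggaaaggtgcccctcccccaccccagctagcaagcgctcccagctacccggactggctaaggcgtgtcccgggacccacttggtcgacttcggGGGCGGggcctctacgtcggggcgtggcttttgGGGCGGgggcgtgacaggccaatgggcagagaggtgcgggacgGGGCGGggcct
Both windows are rich in G and C (70.0% for Bcam and 67.6% for Dag1). On either strand, GGGCGG occurred 3 times in the Dag1 window and not in the Bcam window, and 32.7% of 32851 RefSeq windows of this length hold it. The E-box letters CANNTG occurred once in the Dag1 window (66.2% of all windows hold them), and the AP-1 letters TGANTCA (6.75%) and TEAD letters GGAATG (12.6%) occurred in neither.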

How the data were processed

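Per the file headers, each of the 24 deposited tables lists 117497 transcripts with their length, effective length, estimated count and TPM. The submitters' processing notes name kallisto 46.1, Picard and GRCm39, while gene names, transcript structures and sequences here come from GENCODE M21 on GRCm38, so no gene coordinates are given beyond the printed sequences. Identifiers without version matched for 116374 transcripts; the 1123 others held 0.317 to 0.594% of a library's counts and were left out. Deposited estimated counts were summed per gene and rounded. The authors' TPM values are scaled to transcript length.

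The test was edgeR 4.0.16's robust quasi-likelihood F-test with TMM factors and the default filter, on all 24 libraries (group and batch), with Benjamini-Hochberg adjustment over 12211 genes and a threshold of 0.05; interaction fits had a mean per group and batch. Standard errors were derived from the change and its F statistic. The test of BCAM high against BCAM low was also run on simulated counts with known changes. Those counts held no batch effect, so that run does not bear on differences that depend on batch. Transcript shares were tested by exact permutation within batch. Alternatives used DESeq2 1.42.0 and limma 3.58.1, among others. The genes named were the 7 members, up to 4 called genes per list and comparison with the largest change, and the 5 genes most like Bcam. Itgb1 and the genes of the non-overlapping transcripts were named after their values were seen. The members and lists were chosen with earlier results of these data known. Same-numbered libraries were not treated as paired. Not every listed gene is reported here.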

Additional observations from a re-analysis of the deposited data

Results flagged for a closer look

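Single libraries stood away from the other 7 of their group in 4 of 27 sets of values, by Dixon's test at 95%, where chance marks about 1 set in 20. Lama3 in differentiated 6 was at 11.3 CPM, the highest of its group. Lamc1 in BCAM low 6 was at 14.11 CPM, the lowest of its group. BCAM low 1 had the lowest Bcam-201 share of its group, 84.68%. BCAM low 2 had the highest Bcam-202 share, 0.98%, where the other 7 were at 0. With 7 values at 0 any value above 0 is marked, so that mark was fixed in advance. The Bcam-201 shares of BCAM low had their median at the upper bound of 100%. The chance rate therefore does not hold for either of these sets of shares.

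The differences from the differentiated group that changed between batches (log2, batch 2 minus batch 1, edgeR interaction test) were -1.51 for Bcam and -1.84 for Lamb3 in BCAM high, and -1.79 for Bcam, -2.28 for Lamb3 and -0.73 for Dag1 in BCAM low. In the same libraries thyroid transcripts were at 13796 to 25931 CPM in batch 1 and 49438 to 116838 in batch 2. Their part in these changes was not tested.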

How the results depend on the processing

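Between BCAM high and BCAM low, the number of the 7 genes called was 1 in batch 2 alone, 1 with only the 2 groups compared and 1 with limma on log2(TPM + 1), Lamb3 each time, against 0 otherwise. Against differentiated, transcript length offsets took BCAM high from 5 called to 3. Bcam in BCAM high against differentiated passed in batch 1 alone (1.26), with limma on log2(TPM + 0.1) (1.51) and log2(TPM + 1) (1.497) and with the DESeq2 Wald test (0.60); leaving out 1 library gave 0.47 to 0.77, passing without differentiated 6 (0.76) or 7 (0.77). In BCAM low against differentiated it passed in batch 1 alone (0.94) and with limma on TPM (0.71 and 0.70), and reversed in batch 2 alone (-0.85). Genes whose BCAM high difference depended on batch numbered 1 to 3 on leaving out 1 library. The Bcam-202 share lost its call in batch 2 alone for BCAM high against BCAM low (10.04 points), and in batch 1 (-4.76) and batch 2 (-7.66) alone for BCAM low against differentiated, where fewer libraries limit the p. The cause of the other changes was not tested. Same-numbered libraries correlated at 0.03 to 0.18 in 24 pairs, 7 over 0.1, and 23 correlated best with their own number; with the number as a replicate block, 0, 5 and 4 genes were called in the 3 comparisons, as in the fit without it, and the Bcam-202 difference of 10.46 points kept its call (exact sign-flip permutation, adjusted p = 0.0234). Lama3 had 1 to 200 counts and Lamc1 19 to 128 per library, which limits both.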
